A study of Mus musculus with 6 samples.

Results

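Cytip, Cyth1, Cyth2 and Itgb2 are 4 genes of a common adhesion pathway, taken by symbol from a deposited table of 1228 genes, where each has 1 entry. The table gives FPKM, fragment counts scaled by gene length and library size, from RNA sequencing of Bv2 cells, an immortalised mouse microglial line labelled as wild type. The 3 control libraries are described only as control. The 3 OGD/R libraries came from cells labelled as deprived of glucose and oxygen, which per the labels' protocols had 30 min in nitrogen, 2 h at 1% oxygen in medium free of glucose and serum, and 24 h of reperfusion in standard medium with serum. All groups share the line and its culture in medium with 10% serum. The protocols also speak of an infection 72 h earlier, without saying which samples it concerns, so an infection of the OGD/R cells alone and OGD/R cannot be told apart. Nothing in the labels says that replicates were separate cultures, so the p-values measure the spread between these libraries, which may be technical.

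Beta-2 integrins are adhesion receptors of leukocytes, microglia among them. Each is a dimer of the beta-2 chain (CD18, encoded by Itgb2) with 1 of several alpha chains. Cytohesins are exchange factors that load GTP onto ARF GTPases at membranes through a Sec7 domain, and cytohesin-1 (Cyth1) also binds the cytoplasmic tail of the beta-2 chain. Cytip is a scaffold of immune cells with a PDZ domain and a coiled coil, through which it binds cytohesins, and in dendritic and T cells it is known to restrain adhesion through the beta-2 integrin LFA-1. The title of the series names Cytip and Lrrfip2 together. Lrrfip2, the other cytohesins Cyth3 and Cyth4, and the alpha chains Itgal, Itgam and Itgax are not analysed here.

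The table holds genes that differ between the groups. Of its 1228 genes, 852 had a mean of at least 1 FPKM over the 6 libraries and were tested with limma on log2(FPKM + 1), and 829 of these, or 97.3%, passed an adjusted p of 0.05, with 46.6% of those tested higher in OGD/R and 50.7% lower. All 4 genes of the pathway were tested and all 4 passed, 3 higher and 1 lower, a share that does not set them apart from the rest of the table. The steps between low FPKM values put the depth of the libraries at 7613000 to 8247000 counted units in control and 8016000 to 8666000 in OGD/R. Among listed markers of other cells, those of T, B and NK cells are not analysed here, and the others in the table were low, with Vwf at 1.10 to 4.40 FPKM, Cpa3 at 0.00 to 1.12, Tubb3 at 0.00 to 1.17 and Cspg4 at 0.00 to 0.09. Of 10 listed endothelial and fibroblast markers only Vwf was in the table, at 3.22 to 4.40 FPKM in control and 1.10 to 1.74 in OGD/R. Of 14 for astrocytes, neurons and oligodendrocytes, 2 were in the table, with sums of 0.65 to 1.26 and 0.00 to 0.40. Of 9 for neutrophils and mast cells only Cpa3 was, at 0.43 to 1.12 and 0.00 to 0.16. A listed marker outside the table has no value here, so the level of a whole list is not known. The low markers in the table were lower in OGD/R, and their part in the results below was not tested. Of 20 listed microglial and macrophage markers, 3 were in the table. Fcgr1, an Fc receptor of macrophages, stood at 46.51 to 53.50 FPKM in control and fell to 23.52 to 24.63 in OGD/R, Cx3cr1 rose from 0.22 to 0.52 up to 1.55 to 1.99, and P2ry12, at 0.41 to 0.62 and 1.04 to 1.62 FPKM, was below the minimum for testing.

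Cytip, the scaffold, was the least abundant of the 4 genes in control cells and had the largest change. Its level was 1.39, 1.08 and 0.82 FPKM in the control libraries and 7.35, 8.83 and 7.70 in the OGD/R libraries. The lowest OGD/R value was far above the highest control value. Group means were 1.10 ± 0.285 and 7.96 ± 0.774 FPKM (SD, n = 3), a ratio of 7.26, and the difference on the log2(FPKM + 1) scale was 2.10 ± 0.14 (SE; limma adjusted p = 7.6e-05). That scale understates the change of a gene near 1 FPKM, and the same comparison with voom on the recovered units gave a log2 fold change of 2.88. Among the 852 tested genes Cytip had the number 15 rise by log2 fold change, falls not counted. Counted units were 72, 60 and 42 in control and 397, 503 and 450 in OGD/R, and the coefficient of variation in control was 26% against 13.1% from counting alone. In these bulk samples a change in the number of cells that express a gene and a change in RNA per cell cannot be told apart.

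Itgb2, the beta chain shared by all beta-2 integrins, was the most abundant of the 4 genes in each group. Its level was 19.66, 23.44 and 25.30 FPKM in control and 54.80, 55.18 and 54.45 FPKM in OGD/R. The OGD/R libraries were nearly equal to each other and all stood above every control library. Means were 22.8 ± 2.87 and 54.8 ± 0.365 FPKM (SD, n = 3), a ratio of 2.40, with a log2 fold change of 1.24 ± 0.12 (SE; limma adjusted p = 0.00016). The OGD/R libraries held 1341 to 1440 counted units of Itgb2, and their coefficient of variation, 0.666%, was below the 2.67% that counting alone gives.

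Cyth1, the cytohesin that binds the beta-2 tail, rose from 3.01, 4.32 and 5.04 FPKM in control to 8.07, 8.14 and 11.79 in OGD/R. OGD/R replicate 3 stood above the other OGD/R libraries, and control replicate 1 was the lowest of all 6. Means were 4.12 ± 1.03 and 9.33 ± 2.13 FPKM (SD, n = 3), a ratio of 2.26, and the log2 fold change was 1.01 ± 0.21 (SE; limma adjusted p = 0.0031), with the largest SE of the 4 genes. Without OGD/R replicate 3 the log2 fold change was 0.85, still past the threshold (limma adjusted p = 0.0080). Its coefficients of variation, 25.0% in control and 22.8% in OGD/R, were above the 8.90% and 5.71% of counting alone.

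Cyth2, which encodes the cytohesin also called ARNO, was the member that fell. It stood at 13.90, 17.00 and 14.65 FPKM in control and at 6.80, 6.17 and 9.31 in OGD/R. Every OGD/R library was below every control library, and OGD/R replicate 3 was again the highest of its group. Means were 15.2 ± 1.62 and 7.43 ± 1.66 FPKM (SD, n = 3), so the control mean was 2.04 times that of OGD/R, and the log2 fold change was -0.95 ± 0.16 (SE; limma adjusted p = 0.0014). The groups did not overlap in any of the 4 genes, as in 95.1% of the tested genes (46.2% with OGD/R above control and 48.8% with OGD/R below).

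**Figure D1:**
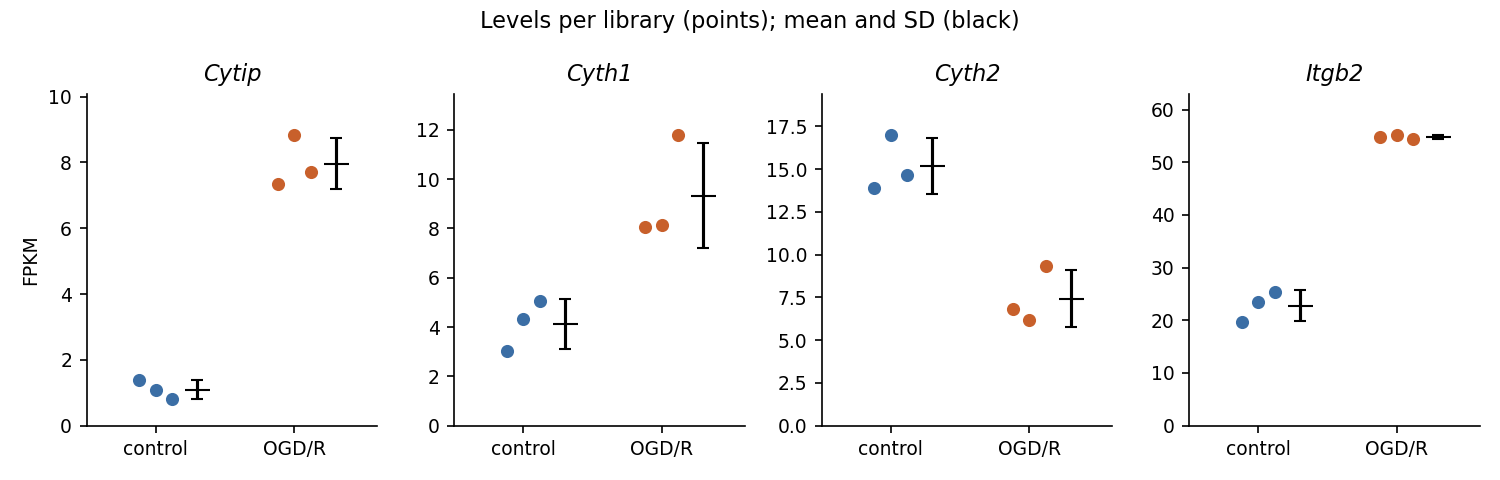
FPKM of Cytip, Cyth1, Cyth2 and Itgb2 in each library, 1 panel per gene with its own linear axis from 0; points are libraries in replicate order, blue for control and orange for OGD/R, and black marks are the mean with its SD (n = 3). Cytip, Cyth1 and Itgb2 are higher in all OGD/R libraries, from 0.82 to 1.39 up to 7.35 to 8.83 FPKM for Cytip, and Cyth2 is lower in all of them.

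Since FPKM is scaled by gene length, levels of the 4 genes can be set beside each other, though only roughly. The lengths that made the counted units whole were exons merged over all transcripts. For Cyth2 these are 3445 nt, against 2527 nt in its longest transcript, so the order of close levels can depend on the length used. In control cells the order of levels was Itgb2, Cyth2, Cyth1 and Cytip, and no neighbours in that order overlapped. In OGD/R cells Itgb2 was again the highest. Cyth1, Cytip and Cyth2 followed at means of 9.33, 7.96 and 7.43 FPKM, and there each neighbour overlapped the next. Cyth1 was above Cytip in 2 of 3 OGD/R libraries, and Cytip above Cyth2 in 2 of 3. The least abundant gene of the control cells was thus within the range of the cytohesins after OGD/R.

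A ratio of 2 genes within a library does not depend on how that library was scaled, and 6 pairs can be formed from the 4 genes. The ratio of Cyth1 to Cyth2 was 0.217, 0.254 and 0.344 in control and 1.19, 1.32 and 1.27 in OGD/R. Cyth2 was the more abundant cytohesin of the pair in every control library and Cyth1 in every OGD/R library. The mean difference in the log2 ratio was 2.24 (two-sided exact permutation test, p = 0.10, adjusted p = 0.12 over the 6 pairs), and 0.10 is the smallest p that 3 libraries against 3 can give. The ratio of Cytip to Cyth1 rose from 0.462, 0.250 and 0.163 to 0.911, 1.09 and 0.653, and that of Cytip to Itgb2 from 0.0707, 0.0461 and 0.0324 to 0.134, 0.160 and 0.141, each without overlap and with the same p. Relative to Cyth2, Cytip went from 0.1, 0.0635 and 0.0560 to 1.08, 1.43 and 0.827. Relative to Itgb2, Cyth2 went from 0.707, 0.725 and 0.579 to 0.124, 0.112 and 0.171. These 2 ratios also gave p = 0.10 in the exact permutation test. Cyth2 fell and the other members rose without overlap, so every ratio that includes Cyth2 had to differ without overlap. The p-values of those ratios add nothing to the tests of the single genes.

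The exception was the ratio of Cyth1 to Itgb2. It was 0.153, 0.184 and 0.199 in control and 0.147, 0.147 and 0.217 in OGD/R, so the groups overlapped. The difference in log2 ratio was -0.09 (two-sided exact permutation test, p = 0.80, adjusted p = 0.80), and it was 0.01 without OGD/R replicate 1 and 0.01 without OGD/R replicate 2. Cyth1 and Itgb2 rose by similar factors, 2.26 and 2.40, and 3 libraries a group do not show that their changes were equal.

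**Figure D2:**
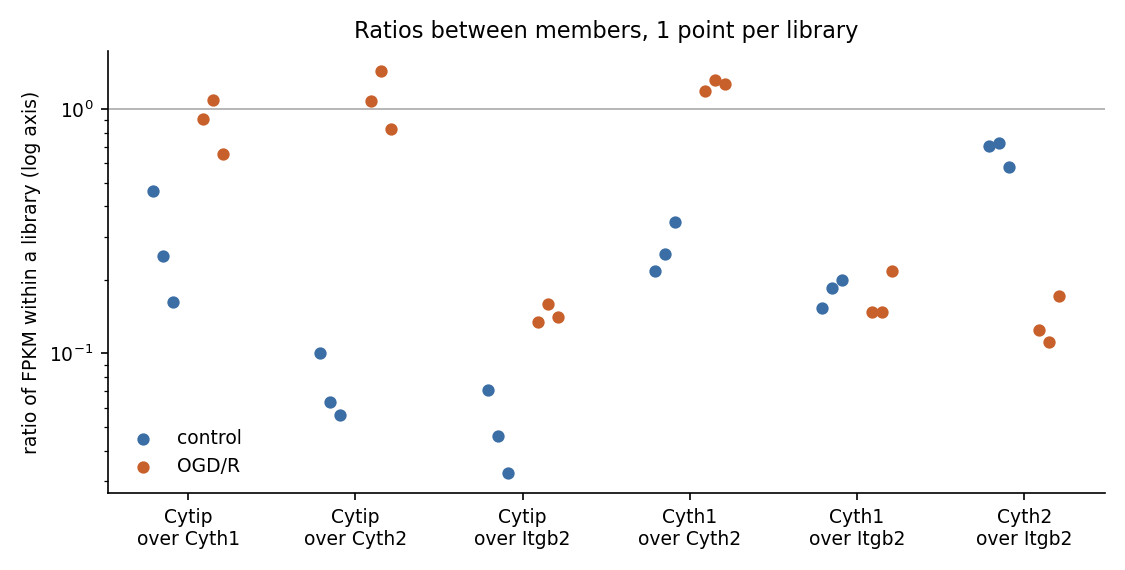
Ratios of FPKM between the 4 genes within each library, 1 point per library, on a log axis, blue for control and orange for OGD/R; the grey line marks equal levels. In 5 of the 6 pairs the groups are apart, as those with Cyth2 had to be, since Cyth2 fell and the other members rose. Cyth1 over Cyth2 moves from below 1 to above 1, and in Cyth1 over Itgb2 the groups overlap.

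The summed level of Cyth1 and Cyth2, computed after their values were seen, overlapped between the groups. The sum was 16.9, 21.3 and 19.7 FPKM in control and 14.9, 14.3 and 21.1 FPKM in OGD/R. Means were 19.3 ± 2.23 and 16.8 ± 3.77 FPKM (SD, n = 3; two-sided exact permutation test on log2 values, p = 0.30). Cyth1 made up 17.8%, 20.3% and 25.6% of this sum in control and 54.3%, 56.9% and 55.9% in OGD/R. The share differed without overlap, as it had to with Cyth1 higher and Cyth2 lower in every OGD/R library. For the sum, OGD/R replicates 1 and 2 lay below every control library, and the overlap came from OGD/R replicate 3. Without that library the log2 difference of the sum was -0.40, against -0.22 with all libraries. With 3 libraries a group the test does not show that the sum was unchanged. Cytip per summed cytohesin was 0.0822, 0.0507 and 0.0416 in control and 0.494, 0.617 and 0.365 in OGD/R. In each OGD/R library there was thus more Cytip for each unit of the 2 cytohesins than in any control library. Cyth3 and Cyth4, which are not analysed here, do not enter the sum.

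**Figure D3:**
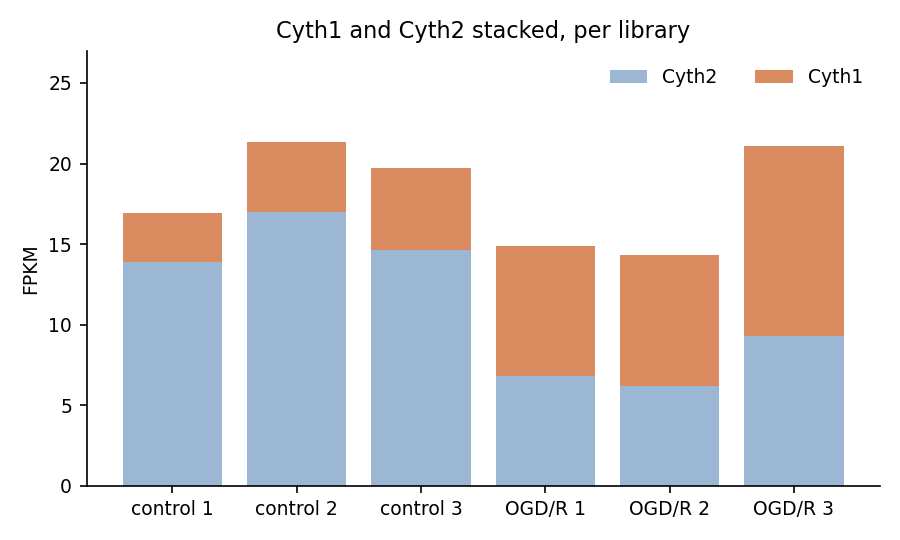
FPKM of Cyth2 (blue) and Cyth1 (orange) stacked for each of the 6 libraries, on a linear axis from 0. Cyth1 takes 17.8% to 25.6% of the bar in control and 54.3% to 56.9% in OGD/R, and the heights of the bars overlap between the groups.

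On GRCm38, with positions from GENCODE M21, Cytip (ENSMUSG00000026832) lies on chromosome 2 from 58129137 to 58195532 on the minus strand, with 6744 nt of exons. Cyth1 (ENSMUSG00000017132) lies on chromosome 11 from 118132019 to 118248592, minus strand, and Cyth2 (ENSMUSG00000003269) on chromosome 7 from 45806637 to 45814581, minus strand. Itgb2 (ENSMUSG00000000290) lies on chromosome 10 from 77530252 to 77565708 on the plus strand. The longest transcripts of Cyth1, Cyth2 and Itgb2 have a GC content of 55.3%, 55.1% and 53.1%, and that of Cytip 42.2%. Protein-coding genes of the table that were higher in OGD/R had a median of 47.4% and those that were lower a median of 53.1%. Median exon lengths of these genes were 4821.5 nt for the higher and 3448.5 nt for the lower. Cyth1, Cyth2 and Itgb2 have exons of 3905, 3445 and 3052 nt, and Itgb2 rose though it is shorter than both medians. A part of GC content or length in the changes was not tested.

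Cyth2 differs from the other members in its overlap with another gene of the table. Gm45444, a transcript on the opposite strand at 45814022 to 45814919, covers the start of Cyth2 and shares 381 nt with its exons, or 11.1% of them. The sources used here do not say whether the counting was stranded, so reads of the shared part may have been counted for either gene. Gm45444 stood at 7.12, 11.61 and 5.69 FPKM in control and 4.30, 3.29 and 3.21 in OGD/R, and fell with a log2 fold change of -0.95 ± 0.24 (SE; limma adjusted p = 0.0085). Its counted units came to 8.99% to 17.8% of those of Cyth2. With all of them subtracted from Cyth2, an alternative added after seeing the data, Cyth2 went from 13.1 ± 0.969 to 6.49 ± 1.73 FPKM (SD, n = 3). The log2 fold change was then -0.93 (limma adjusted p = 0.0021). Units this few could not undo a fall of that size, and they come from all of Gm45444, not only the shared part. The subtraction therefore does not decide how shared reads were counted, and their part in the fall was not tested. No exon of another annotated gene overlaps the exons of Cytip, Cyth1 or Itgb2.

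The stretches before the RefSeq starts are shown for the cytohesins, since Cyth1 and Cyth2 moved in opposite directions, and for Cytip. They come from RefSeq windows of 250 bases upstream on GRCm38.p6, which covered 3 of the 4 genes in 5 windows, with 3 for Cyth1. Bases inside annotated exons of the gene are left out. The Cyth2 stretch lies before the RefSeq start and within the GENCODE gene, since a GENCODE transcript of Cyth2 starts further upstream. For Cytip the whole window lies in an exon of a GENCODE transcript that starts further upstream, so only 30 bases around a motif match are given. All are on the minus strand, 5′ to 3′, with motif matches in capitals.
Cyth2, chr7:45814317-45814419: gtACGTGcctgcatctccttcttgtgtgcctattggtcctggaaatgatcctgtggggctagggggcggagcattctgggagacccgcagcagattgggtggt
Cyth1, outermost start, chr11:118248593-118248808: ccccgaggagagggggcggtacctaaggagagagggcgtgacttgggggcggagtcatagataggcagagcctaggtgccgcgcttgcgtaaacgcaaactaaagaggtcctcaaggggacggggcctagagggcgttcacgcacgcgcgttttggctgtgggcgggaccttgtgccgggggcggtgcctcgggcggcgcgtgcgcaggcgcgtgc
Cyth1, an internal start, chr11:118212743-118212981: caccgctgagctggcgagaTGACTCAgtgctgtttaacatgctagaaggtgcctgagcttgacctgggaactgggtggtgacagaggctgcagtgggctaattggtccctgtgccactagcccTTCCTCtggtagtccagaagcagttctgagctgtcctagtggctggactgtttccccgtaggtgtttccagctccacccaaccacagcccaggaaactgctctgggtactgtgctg
Cytip, chr2:58160303-58160332: ggctgtttgaggGAGGAAaagtacactgat

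The motifs searched, on each strand, were GAGGAA (the core of PU.1 sites), TGANTCA (AP-1), TGACGTCA (CRE), ACGTG (the core of hypoxia response elements), TGCAAT (bound by CHOP with a partner), CACGTG (E-box, which contains ACGTG) and the NF-kB motif. GAGGAA was found in the Cytip window, as in 23.3% of all 32851 RefSeq windows of this length, and in the printed internal Cyth1 window, where it reads TTCCTC on the printed strand. That Cyth1 window also held TGACTCA, a form of the AP-1 motif found in 6.75% of all windows. ACGTG was found in the Cyth2 window, as in 16.6% of all windows. None of the 7 motifs was in the outermost Cyth1 window, whose GC content was 70.4% against a median of 52.4%, or in the other internal Cyth1 window, chr11:118202731-118202980, which is not printed. The Cyth2 stretch lies wholly inside the exon of Gm45444. A match is a description of these letters only.

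Cyth2 had more neighbours in the table than the other members. Within 1 Mb on either side, a distance chosen after seeing the positions, 11 other genes of the table lay near Cyth2, 2 near Cyth1, and 0 near Cytip and Itgb2. These windows hold 145, 60, 29 and 96 other annotated genes. All 11 neighbours of Cyth2 had the lower mean in OGD/R, as did 50.7% of the table. Of 8 tested, 7 passed the threshold, no more than the 97.3% of all tested genes, and Hsd17b14 did not, at 7.66 ± 3.78 and 3.79 FPKM (limma adjusted p = 0.12, and 0.025 without control replicate 1 and 0.030 without OGD/R replicate 3). Ppp1r15a, a phosphatase subunit that helps to restart translation after stress, fell from 47.0 ± 10.3 to 6.35 FPKM, Sphk2, a sphingosine kinase, from 17.1 ± 1.45 to 5.62, and Atf5, a stress-responsive transcription factor, from 35.2 ± 2.41 to 14.8. The longest transcripts of the 11 neighbours had a median GC content of 58.6%, above that of the lower genes of the table. Near Cyth1, Cbx8, a polycomb protein, fell from 1.80 to 0.613 FPKM, in the direction opposite to Cyth1, and the antisense gene Gm11738 was listed at 0 in all control libraries and at 0.11 to 0.35 FPKM in OGD/R.

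**Figure D4:**
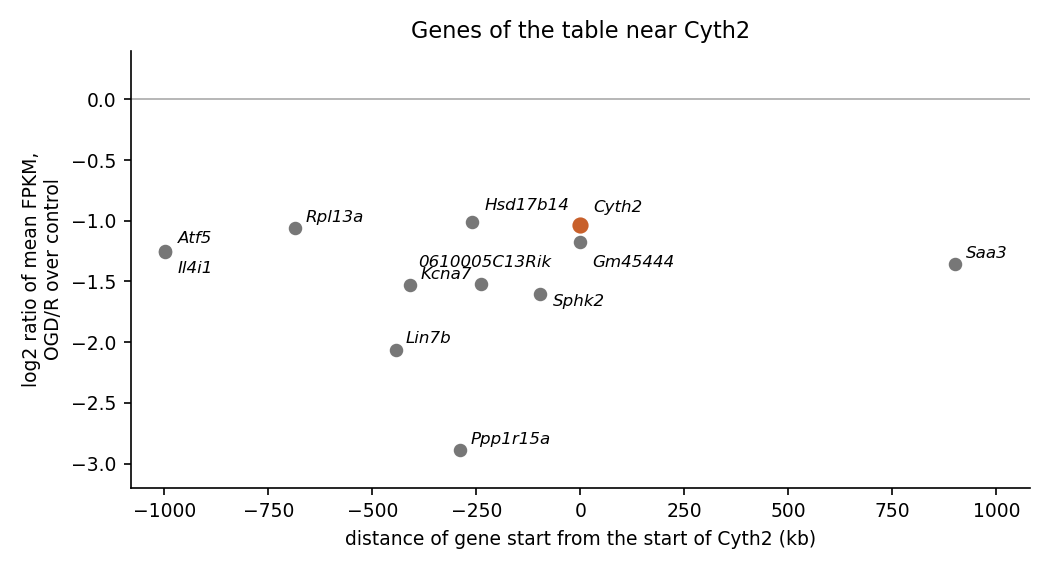
Log2 ratio of mean FPKM, OGD/R over control, for genes of the table within 1 Mb of Cyth2 (orange), against the distance of each gene's start from that of Cyth2 in kb, negative towards lower coordinates. All 11 neighbours lie below the grey line of equal means, Ppp1r15a the lowest, and Gm45444 lies beside Cyth2.

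Of 195 other genes listed for the pathway, 12 were in the table and 8 were tested. All 8 passed, as did 97.3% of the tested genes. Of the 8, 3 rose and 5 fell, where the table had 46.6% higher and 50.7% lower. The median absolute log2 fold change was 1.03, against 1.04 over all tested genes. Psd3 and Frmd4b, among those that rose, had control means of 0.787 and 0.817 FPKM. They reached the minimum mean of 1 FPKM only through the OGD/R libraries, so a rise was favoured when they were kept for testing. Among 14 listed exchange factors for ARF GTPases, Psd3, an exchange factor of the EFA6 family for ARF6, rose from 0.68, 0.75 and 0.93 FPKM to 3.31, 2.42 and 2.26 (log2 fold change 1.03 ± 0.14 SE). Among 20 ARF and ARL GTPases, Arl4c, of a family known to recruit cytohesins to the plasma membrane, rose from 4.75, 3.56 and 3.10 FPKM to 11.90, 11.53 and 10.61 (limma adjusted p = 0.00022). Of the ARF exchange factors described here, Psd3 and Cyth1 thus rose and Cyth2 fell.

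Of 23 listed ARF GTPase-activating proteins, which return ARF to its inactive form, 2 were tested. Each fell, a count that the 50.7% of tested genes called lower does not set apart. Arfgap3, which works at the Golgi, went from 12.91, 11.34 and 11.95 FPKM to 5.54, 5.47 and 6.19, and Agap1 from 6.58, 5.27 and 5.23 to 2.19, 2.23 and 1.90 (log2 fold changes -0.96 ± 0.10 and -1.10 ± 0.12 SE). Among 16 listed genes for cytohesin-binding scaffolds and partners of Lrrfip2, Cytip included, Frmd4b, which binds cytohesins, rose from 0.91, 0.74 and 0.80 FPKM to 2.12, 2.47 and 2.19 (limma adjusted p = 0.00042). Frmd4b reached the minimum for testing only through its OGD/R libraries. Its relative Frmd4a was below the minimum for testing, at 0.27 to 0.49 FPKM in control and 1.01 to 1.05 in OGD/R.

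Around the integrin the counts were small. Of the 4 alpha chains that pair with beta-2, Itgad was in the table, below the minimum for testing, at 0.46, 0.24 and 0.41 FPKM in control and 0.03 in each OGD/R library. Its values lay in the direction opposite to Itgb2. Of 31 listed genes of inside-out activation, which switches integrins on from within the cell, Rapgef2, an exchange factor for Rap GTPases, was tested and fell from 5.74, 4.15 and 4.75 FPKM to 1.80, 1.79 and 1.63 (log2 fold change -1.09 ± 0.13 SE, limma adjusted p = 0.00030). Of 16 genes listed for ligands and their relatives, Mmp9 and Jam2 were in the table and too low to test. Their levels were 0.37 to 0.59 and 0.08 to 0.17 FPKM in control and 0.93 to 1.34 and 0.23 to 0.41 in OGD/R. The listing does not show that Jam2 binds a beta-2 integrin. The 22 other integrin chains and the 31 listed genes of outside-in signalling are not analysed here. Among 19 other adhesion receptors, 2 were tested and each fell, a count that the 50.7% of tested genes called lower does not set apart. P-selectin (Selp) went from 3.03 ± 0.321 to 1.08 ± 0.166 FPKM (SD, n = 3), and Cd47, the ligand of SIRP-alpha, from 27.7 ± 0.913 to 13.1 ± 0.344.

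**Figure D5:**
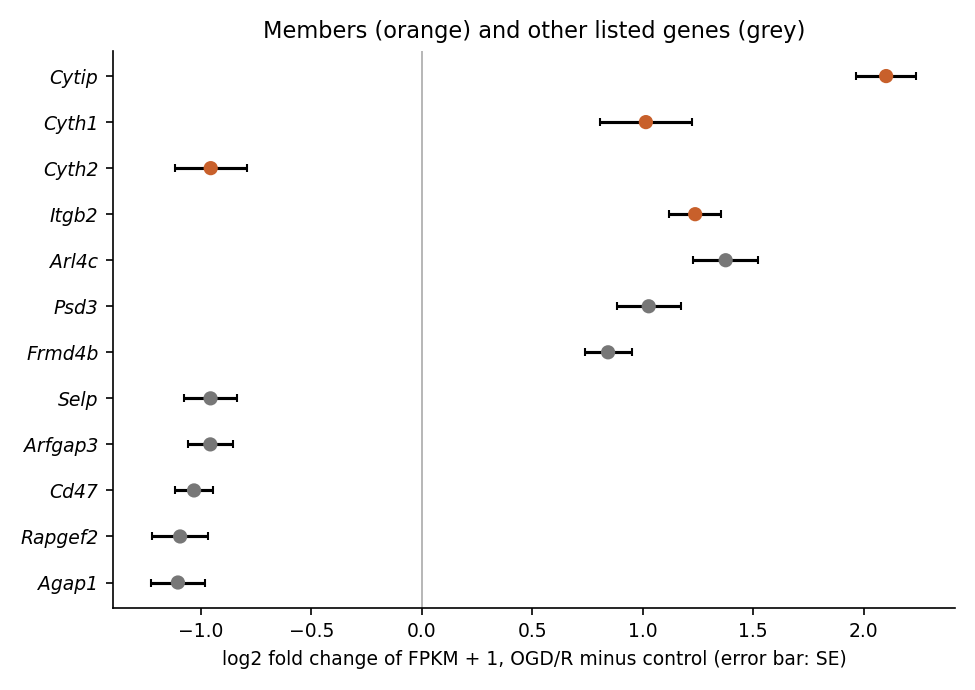
Log2 fold change of FPKM + 1, OGD/R minus control, for Cytip, Cyth1, Cyth2 and Itgb2 (orange) and the 8 other tested genes of the pathway lists (grey), with error bars of 1 SE from limma. Cytip has the largest change at 2.10, and the 3 other listed genes that rose and the 5 that fell lie at similar sizes on either side of 0.

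The genes most like each member were found by the root mean square difference of log2(FPKM + 1) over the 6 libraries, each gene centred on its own mean. The search covered 635 other tested genes. Symbols that start with Gm and a digit or end in Rik or -ps were left out, as were IDs with no symbol. All share the same libraries and a table of genes that differ between the groups, so likeness is given as a description. Nearest to Cytip were Chst10, a sulfotransferase, Tgm2, a transglutaminase, and Arrdc4, an arrestin-domain gene, at differences of 0.125, 0.153 and 0.154. Chst10 went from 1.31, 1.36 and 0.80 FPKM to 6.98, 7.28 and 7.57, close to Cytip in level as well. Itgb2 was nearest to Kif23, Kif11 and Ckap2l, which act in mitosis, at 0.045, 0.055 and 0.058. Kif23 rose from 5.40, 6.09 and 6.92 FPKM to 16.04, 16.88 and 16.53, with the OGD/R libraries close together as in Itgb2.

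Cyth1 was nearest to Tipin and Dna2, which act at DNA replication forks, and Cisd3, an iron-sulfur protein of mitochondria, at differences of 0.061, 0.089 and 0.093. Tipin had 22.13, 28.55 and 29.32 FPKM in control and 47.84, 48.91 and 67.18 in OGD/R, with the same lowest and highest libraries as Cyth1. Cyth2 was nearest to Usp18, a protease that removes ISG15, Rabep2, an endosomal protein related to rabaptin, and Tmem106a, at 0.080, 0.087 and 0.088. Usp18 fell from 20.15, 22.26 and 22.65 FPKM to 10.58, 9.31 and 12.74. In these 3 genes, as in Cyth2, OGD/R replicate 3 was the highest of its group.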

How the data were processed

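The deposited values are FPKM, which the authors rounded to 2 decimals; each library has its own column. Per the submitters' processing notes the build was GRCm38; how reads were aligned and counted, with which annotation, and how the 1228 genes were selected the sources used here do not say. Reads were paired and 150 nt long, per the labels' protocols. Gene IDs were matched to GENCODE M21 (1227 of 1228). Counted units were recovered as the library size at which low FPKM values became whole within rounding plus 0.03 units. Low values were those under 15 units, with exon lengths from GENCODE. This held for 97.5% to 100% of them, against at most 51.1% at other sizes below or moderately above it. Multiples of a fitting size also give whole numbers, so the smallest fitting size was taken. A unit may be a read or a read pair.

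Genes with a mean of at least 1 FPKM were tested on log2(FPKM + 1), pseudocount 1, with limma 3.58.1 in R 4.3.3 (a two-sided test of group, with no other factor and a trended eBayes prior) and Benjamini-Hochberg adjustment over the 852 genes. Ratios were compared with exact permutation tests in Python 3.11.15 (scipy 1.17.1). Scripts were tested on simulated data. Alternatives covered the pseudocount, filter, scaling, eBayes trend, replicate block, voom and each library left out. The text names the 4 members, up to 4 tested genes of each pathway list with the largest change, listed genes not tested, and the 3 genes most like each member; marker genes and neighbours on the chromosome were named after their values were seen. A listed gene is not reported here. The members and lists were chosen with earlier results of these data known.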

Additional observations from a re-analysis of the deposited data

How the results depend on the processing

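The tested genes that differed numbered 829, 789 to 829 without any 1 replicate, and 409 of the 423 genes left by a minimum mean of 5 FPKM. Cytip, Cyth1, Cyth2 and Itgb2 stayed past the threshold in the main direction in all 60 combinations of gene and alternative that were run. Their log2 fold changes were 2.00 to 2.88, 0.85 to 1.19, -1.11 to -0.77 and 1.14 to 1.44. Cytip was under the minimum of 5 FPKM and has no value there. The table holds genes that differ between the groups, and most tested genes were called under each alternative. Staying past the threshold thus does not set the members apart. Of 32 other tested genes in the text or the plots, 31 kept direction and call; Hsd17b14, not called, passed with the replicate block and without control replicate 1 or OGD/R replicate 3 (limma adjusted p = 0.028, 0.025 and 0.030). Scaling to the upper quartile moved the median log2 fold change of all tested genes by 0.16 and scaling to the median by 0.03. The log2 ratio of Cyth1 to Itgb2, -0.09, reversed to 0.0074 and 0.0062 without OGD/R replicates 1 and 2 (range -0.27 to 0.01 without any 1 replicate); the cause was not tested. The sum of Cyth1 and Cyth2 had a log2 difference of -0.22, -0.01 with upper quartile scaling (exact permutation p = 1), and -0.40 to -0.12 without any 1 replicate. Deviations from the group means correlated at 0.428, -0.349 and 0.375 between same-numbered libraries, and at -0.628 to 0.479 between the others. With 3 libraries a group, these values do not decide whether the numbers pair the samples. With the replicate block limma called 835 genes, all 4 members among them (Cytip adjusted p = 0.00088).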
